A study of Mus musculus with 6 samples.

Results

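The smooth muscle and myofibroblast contractile genes described here are 9 genes chosen by name: Acta2, Tagln, Cnn1, Myh11, Myl9, Tpm1, Tpm2, Actg2 and Cald1. No measured value entered the choice. All 9 were found among the 27179 genes of the bulk count table, among the 28360 genes counted in the fibroblasts single-cell library and among the 28052 genes counted in the cardiomyocytes single-cell library. The study placed immature cardiomyocytes (imCMs) from neonatal C57BL/6 mouse hearts (C57BL/6J in the methods) on cardiac fibroblasts from neonatal hearts (NF) or from adult hearts (AF), and asked how the age of the fibroblasts affects cardiomyocyte maturation. Bulk RNA-Seq was done on imCMs recovered from co-culture with NFs (imCM-NF, 2 libraries) or with AFs (imCM-AF, 2 libraries), and single-cell RNA-Seq gave 1 library of wells labelled fibroblasts and 1 of wells labelled cardiomyocytes. In all cultures the fibroblasts had been passaged before use, no altered gene is named in the labels, and per the methods fewer NFs than AFs were plated per imCM.

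Smooth muscle cells shorten when myosin II pulls on filaments of smooth muscle actin. Acta2 and Actg2 encode the vascular and the enteric smooth muscle actins, Myh11 the smooth muscle myosin heavy chain and Myl9 a regulatory myosin light chain. Tpm1 and Tpm2 encode tropomyosins, which lie along the actin filament, while Tagln (transgelin, SM22), Cnn1 (calponin 1) and Cald1 (caldesmon) bind actin and set how the filament is used. Activated fibroblasts, called myofibroblasts, take up Acta2, Tagln and other genes of the set, and immature cardiomyocytes also use Acta2. Tpm1 is in addition the main striated tropomyosin of the heart, through other splice forms, so a count per gene does not separate its muscle from its non-muscle forms. Many genes of the set are switched on by serum response factor with its partners of the myocardin family, which bind the CArG box.

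The promoters of 3 members are shown because serum response factor is the shared regulator of the set, and because Acta2 and Myl9 carry the boxes while Cnn1, which was called in the bulk comparison, does not in the window searched. Each run covers 250 bases before and 50 bases after the RefSeq start on GRCm38.p6, 5′ to 3′ on the strand of the gene, and capitals mark a CArG box or a box with 1 of its middle letters changed to G or C.
Acta2 (chr19:34255324-34255623, minus strand): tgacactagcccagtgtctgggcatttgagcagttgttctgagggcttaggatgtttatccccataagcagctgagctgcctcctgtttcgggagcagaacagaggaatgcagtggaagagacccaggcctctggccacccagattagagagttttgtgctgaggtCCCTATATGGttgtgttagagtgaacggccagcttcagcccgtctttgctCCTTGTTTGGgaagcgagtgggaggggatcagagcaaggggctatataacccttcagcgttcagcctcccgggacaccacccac
Myl9 (chr2:156775214-156775513, plus strand): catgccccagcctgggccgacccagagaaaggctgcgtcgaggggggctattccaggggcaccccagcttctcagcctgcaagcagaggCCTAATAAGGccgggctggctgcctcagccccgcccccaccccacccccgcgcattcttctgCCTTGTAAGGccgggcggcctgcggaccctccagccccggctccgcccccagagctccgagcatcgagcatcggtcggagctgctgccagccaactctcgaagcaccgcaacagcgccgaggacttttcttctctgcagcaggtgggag
Cnn1 (chr9:22099003-22099302, plus strand): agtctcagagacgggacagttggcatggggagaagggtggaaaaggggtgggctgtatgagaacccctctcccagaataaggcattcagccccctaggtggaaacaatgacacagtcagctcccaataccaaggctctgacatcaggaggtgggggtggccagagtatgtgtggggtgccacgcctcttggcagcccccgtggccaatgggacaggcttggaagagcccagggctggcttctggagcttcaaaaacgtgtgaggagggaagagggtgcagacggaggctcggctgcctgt
A promoter was found in the RefSeq table for 6 of the 9 members (7 promoters, Cald1 having 2). The promoters of Tagln, Myh11 and Actg2 are not shown. Myl9 held 1 CArG box, starting 161 bases before the start, and 1 box with a changed letter, 99 bases before it. Acta2 held 2 boxes with a changed letter, 84 and 34 bases before the start. No other member promoter held either form. Of 32851 promoters of the same length, 1.63% held a CArG box and 8.5% a box with 1 changed letter. The letters CATTCC, bound by TEAD factors, stood on either strand in the promoters of Acta2, Tpm1 and Cald1 (the upstream one) and in 14.7% of all promoters. A match describes the letters only, and the absence of a match says nothing of the factor.

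The bulk libraries held 9278909 and 12088577 counts (imCM-NF) and 10766124 and 11790263 counts (imCM-AF). In the single-cell libraries 2247 of 2462 wells named as cells passed the filter, and the median per well name ranged from 13730 to 51940 UMIs (unique molecular identifiers, counted transcripts). The libraries had 269 well barcodes in common. The authors' well names AF and NF (fibroblasts library) and AFNCM and NFNCM (cardiomyocytes library) were followed by a number, and AF0, NF0 and NCM0 wells also existed. What the 0 stands for is not given in the labels, and the names are used here as they stand. Before the filter, the names without the 0 together held as many wells as the methods state co-cultured cells. The cardiomyocyte markers summed to between 32672 and 45740 CPM (counts scaled to a common total) in the bulk libraries, but fibroblast markers were also present there, at 15488 and 17016 CPM in imCM-NF against 10820 and 8564 CPM in imCM-AF.

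In the bulk libraries the levels of the 9 genes spanned a wide range. Per kilobase of exon, averaged over the 4 libraries, Tpm1 was highest at 1438 CPM per kb, followed by Acta2 at 721, Myl9 at 537, Tagln at 274, Cald1 at 119, Tpm2 at 57.3, Actg2 at 11.9, Cnn1 at 5.66 and Myh11 at 0.515 CPM per kb. The order was led by a gene that cardiomyocytes also use, and Myh11, the smooth muscle myosin, was the lowest, with 30 to 43 counts per library. Only 2 of the 9 genes were called between imCM-AF and imCM-NF (edgeR quasi-likelihood test, Benjamini-Hochberg adjusted p under 0.05 and absolute log2 fold change over 0.58): Actg2 higher and Cnn1 lower in imCM-AF. Of all 14041 genes tested, 11.1% were called, 6.15% higher and 4.99% lower. The median log2 fold change of the 9 was -0.01, against 0.00 for all genes.

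Among the actins, Actg2 and Acta2 lay on opposite sides of 0. For Actg2 the imCM-NF libraries held 11.1 and 14.7 CPM, the imCM-AF libraries 22.3 and 17.1 CPM, so that both imCM-AF libraries were above both imCM-NF libraries. The estimate was 0.58 ± 0.17 on the log2 scale (SE, 2 libraries per group) with an edgeR adjusted p of 0.0149, only just past the fold threshold. The call was lost with DESeq2 (adjusted p = 0.0617), with limma-voom (log2 fold change 0.57), and on leaving out the first-numbered library of either group (0.41 without imCM-NF 1, 0.40 without imCM-AF 1). For Acta2 they held 1601 and 1710 CPM against 1383 and 1177 CPM. All values in imCM-AF were below those in imCM-NF, yet the difference of -0.37 ± 0.15 (log2) did not pass, at an edgeR adjusted p of 0.0757.

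The myosin genes did not pass. Myl9 stood at 674 and 515 CPM with NFs and at 595 and 639 CPM with AFs, the AF values lying between the NF values (0.05 ± 0.14 on the log2 scale, edgeR adjusted p = 0.803). Myh11 stood at 3.34 and 2.81 CPM with NFs and at 3.92 and 3.53 CPM with AFs (0.29 ± 0.26, edgeR adjusted p = 0.445). The Myh11 groups did not overlap, which was true of 66% of all genes tested.

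The tropomyosins also stayed within the replicate spread. Tpm1 ran at 7729 and 6062 CPM with NFs and at 6579 and 7123 CPM with AFs (-0.01 ± 0.22 on the log2 scale, edgeR adjusted p = 0.980). Tpm2 had 115 and 147 CPM against 157 and 127 CPM, and its groups overlapped (0.11 ± 0.12, edgeR adjusted p = 0.529).

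Of the actin-binding genes, Cnn1 was the member called lower. With NFs it stood at 23.1 and 12.7 CPM and with AFs at 10.8 and 10.5 CPM, which is -0.72 ± 0.21 on the log2 scale at an edgeR adjusted p of 0.0184. The imCM-AF libraries were close together and the imCM-NF libraries far apart, and without imCM-NF replicate 1 the difference was -0.26 (edgeR adjusted p = 0.293). Tagln stood at 416 and 497 CPM with NFs and at 470 and 368 CPM with AFs (-0.12 ± 0.13, edgeR adjusted p = 0.517), and Cald1 had 598 and 679 CPM against 596 and 555 CPM (-0.15 ± 0.12, edgeR adjusted p = 0.390). Neither passed. Tagln overlaps Pcsk7 on the other strand and Cald1 overlaps Npn2 on the other strand, and the bulk kit did not mark strand, so that reads of these pairs cannot be told apart where they overlap.

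**Figure D1:**
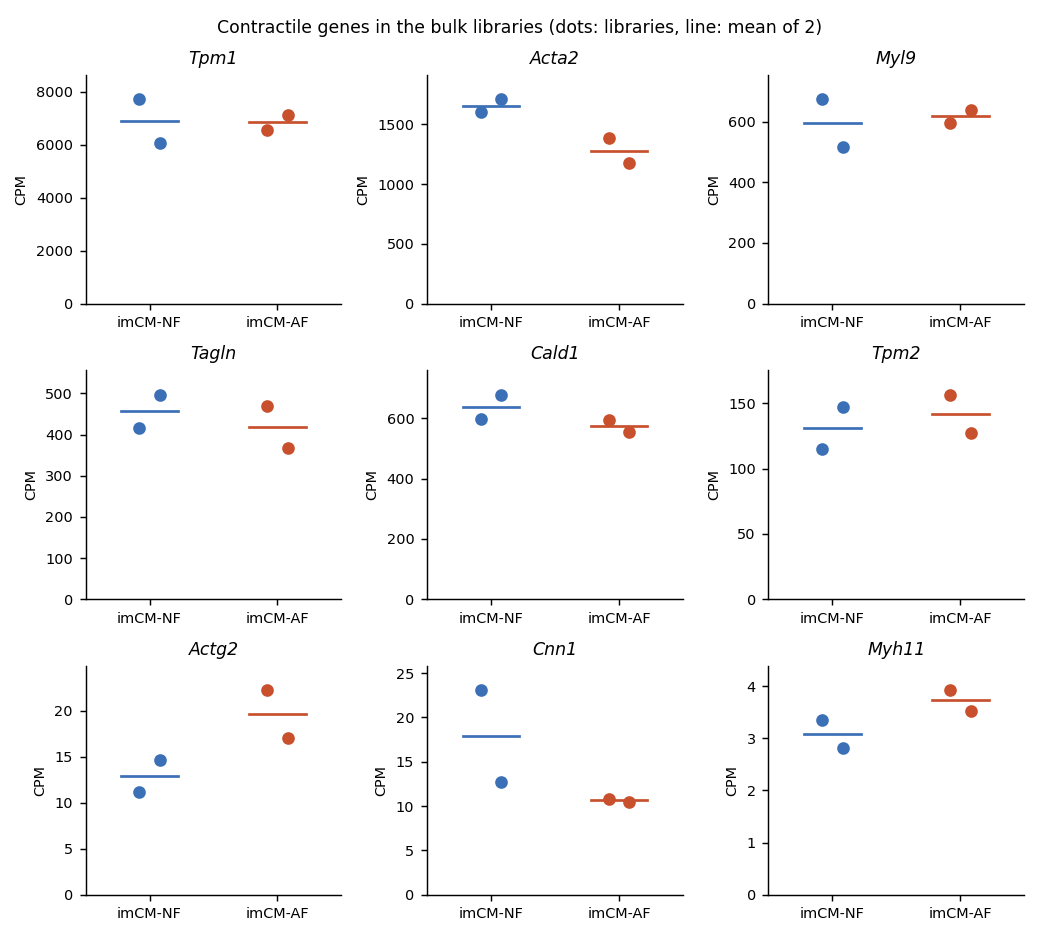
CPM (TMM-scaled, linear axes from 0) of the 9 genes in the 2 imCM-NF libraries (blue) and the 2 imCM-AF libraries (red), with lines at the group means. Actg2 and Cnn1 are the called genes, and the Cnn1 difference rests on imCM-NF replicate 1 at 23.1 CPM, above 12.7, 10.8 and 10.5 CPM in the other libraries.

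Genes that work beside the 9 were counted in 5 lists. For comparison, 11.1% of all genes tested were called, 4.99% were called lower and 49.9% had a log2 fold change below 0. Of 18 other smooth muscle contractile genes, 4 were called: Csrp1, an actin-bundling LIM protein (-0.79 ± 0.11), Ppp1r14a, an inhibitor of myosin phosphatase (-0.69 ± 0.16), and Pdlim7 (-0.59 ± 0.10) lower, and Nexn, a Z-disc actin-binding protein (0.70 ± 0.14), higher in imCM-AF. Of 12 genes listed as non-muscle relatives of the members, 2 were called lower, Tagln2 (-0.83 ± 0.14) and the myosin light chain Myl6 (-0.69 ± 0.10), and all 12 had a log2 fold change below 0. Of 8 striated relatives, only the skeletal actin Acta1 was called (-0.63 ± 0.13). The median log2 fold change was -0.14 for the smooth muscle list, -0.40 for the non-muscle list and 0.15 for the striated list, against 0.00 for all genes.

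Genes that regulate the set were lower where called, beside 4.99% of all genes called lower and 6.15% called higher. Of 18 regulators, 3 were called lower and none higher: Heyl (-1.37 ± 0.10) and Notch3 (-1.03 ± 0.12), a target and a receptor of Notch signalling in mural cells, and the forkhead gene Foxs1 (-0.91 ± 0.13). Srf, Myocd and the genes of TGF-beta ligands and receptors in the list were among the 15 that were not called. Of these, Tgfb1 (-0.52 ± 0.10), Tgfbr2 (-0.39 ± 0.10) and Tgfb3 (-0.28 ± 0.10) missed only the fold threshold, at edgeR adjusted p of 0.00124, 0.00779 and 0.0360. Tead1 did so in the other direction (0.36 ± 0.10, edgeR adjusted p = 0.0142). Of all genes 14.5% were lower at adjusted p under 0.05 alone. Of 10 matrix genes of myofibroblasts, Postn (-1.87 ± 0.15), Cthrc1 (-1.12 ± 0.12) and Col1a1 (-0.76 ± 0.21) were called lower. All edgeR adjusted p-values of these called genes lay between 7.46e-08 (Heyl) and 0.0143 (Col1a1).

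**Figure D2:**
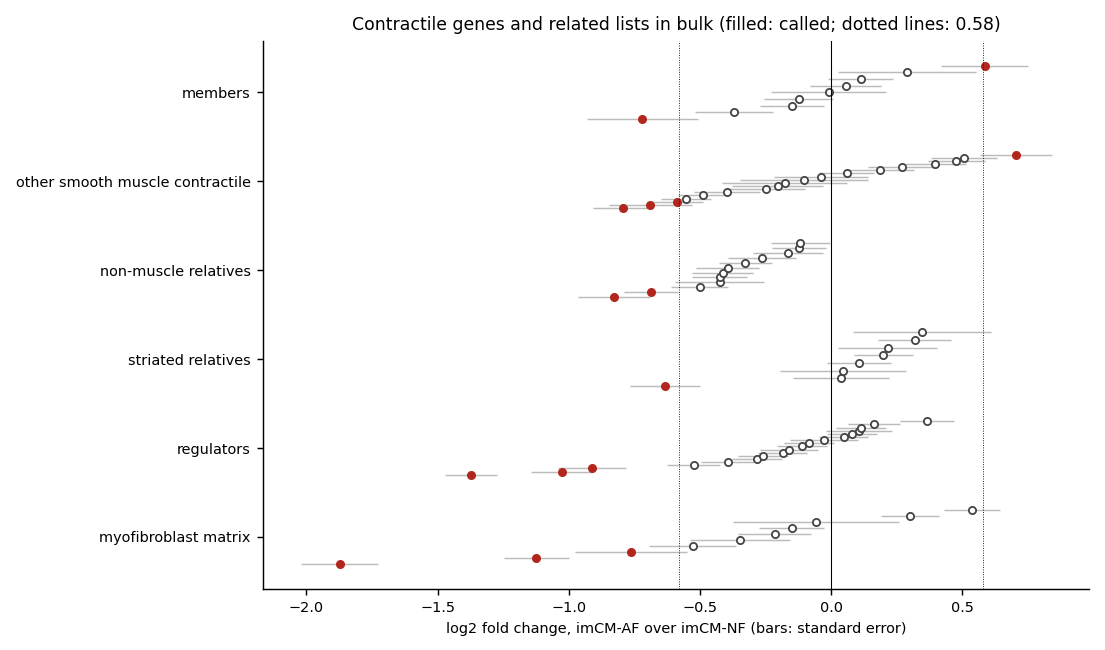
Log2 fold change of imCM-AF over imCM-NF with its standard error, 1 point per gene, for the 9 members and 5 related lists; filled points are called and dotted lines mark 0.58 on either side. The members straddle 0 (1 called on each side), and all 12 non-muscle relatives lie below 0.

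Marker genes of other cells moved in the same comparison. Of 10 fibroblast markers 5 were called lower in imCM-AF, of 9 endothelial markers 5 were called lower, and of 7 pericyte markers tested Notch3 and Pdgfrb were called lower and Abcc9 higher. Of all genes 4.99% were called lower. These lists share called genes with the lists above: Postn and Col1a1 are also matrix genes there, and Notch3 is also a regulator. The endothelial markers summed to 948 and 983 CPM in imCM-NF and to 641 and 606 CPM in imCM-AF, and the pericyte markers to 1005 and 995 CPM against 754 and 700 CPM. Fewer cells of a type and less RNA per cell cannot be told apart in bulk libraries, and the part of these markers in the Cnn1 and Acta2 values was not tested.

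Each single-cell library is 1 sample, so its values have no test, and the intervals given are 95% intervals of counting error only. UMIs were summed over the wells of a name and scaled to CPM. Cardiomyocyte markers summed to between 35990 and 47681 CPM in the names of the cardiomyocytes library and to between 141 and 5250 CPM in the fibroblasts library, where they were higher in NF and NF0 wells (3603 CPM and above) than in AF and AF0 wells (1135 CPM and below). The 5 negative control wells of the cardiomyocytes library held 29 UMIs of Tpm1, 1 of Myl9 and 1 of Cald1, and no UMI of the other 6 members among 1465 UMIs. Those of the fibroblasts library held 3 UMIs of Acta2, 3 of Tpm1, 1 of Tpm2 and 5 of Cald1 among 3587 UMIs.

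In the fibroblasts library, Cnn1 and Actg2 differed by 2-fold or more between AF and NF wells, and no other member with enough signal did. That is 2 of 8 members with at least 10 CPM in either kind of well, against 19.2% of all genes past 2-fold. Cnn1 had 23.1 and 16.0 CPM in the AF names and 1.62 and 1.76 CPM in the NF names, a ratio of 11.7 (6.52 to 23.1). Actg2 had 45.5 and 53.2 CPM in the AF names and 29.4 and 13.8 CPM in the NF names, a ratio of 2.24 (1.86 to 2.71). Both AF names were above both NF names for both genes. Without the 5 highest wells of each name the Cnn1 ratio was 34.6 (5.87 to 1397), on 42 UMIs against 1 UMI. Both levels were then under 10 CPM, so this ratio is poorly determined. The names of 5 of the 8 members did not overlap, against 47.5% of all genes. The highest 5 wells held 86.3% and 93.6% of all Actg2 UMIs in the AF names, however, and without the 5 highest wells of each name the Actg2 ratio was 0.97 (0.61 to 1.56). With the gene minimum as the sole filter it was 1.78, under 2-fold, and with wells weighted equally 4.71.

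Cnn1 separated adult from neonatal wells in the 0 names too. It had 58.8 and 40.7 CPM in AF0 and 6.55 and 6.59 CPM in NF0, a ratio of 7.23 (5.68 to 9.32), and was the only 1 of 8 members past 2-fold there (20% of all genes). The names of 4 of the 8 did not overlap, against 58.7% of all genes. After thinning each well to 5000 UMIs, a Cnn1 UMI was seen in 18.3% and 15.3% of AF0 wells, 2.44% and 0.806% of NF0 wells, 3.57% and 4.17% of AF wells and 0.763% and 0% of NF wells. Without thinning these shares were 37.5% and 48.0%, 3.87% and 11.2%, 10.7% and 14.3%, and 3.70% and 4.26%. The thinned share of 0% is 0 of 92 wells, whose exact interval reaches 3.93%. In endothelial-like wells, taken as the background, the thinned share was 1.82% (0.221% to 6.41%, 110 wells, median 27181 UMIs), so that only the AF0 names stood clear of it. The 2 endothelial-like clusters differed, at 0% in cluster 12 and 5.13% in cluster 15. Cardiomyocyte-like wells gave 0.491% (0.101% to 1.43%, 611 wells) and macrophage-like wells 2.86% (0.0723% to 14.9%, 35 wells). Which names stand clear thus depends on the type taken. Without the 5 highest wells of each name the AF0 over NF0 ratio was 22.2 (12.9 to 41.4).

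The other members stayed under 2-fold between adult and neonatal wells, and some of them differed without overlap of the names. Acta2 had 1383 and 1366 CPM in AF and 1355 and 1437 CPM in NF, a ratio of 0.99 (0.96 to 1.01). In the 0 names Acta2 was lower in AF0 (1320 and 1711 CPM) than in NF0 (2103 and 2432 CPM), with a ratio of 0.68. Tpm1 was also lower in AF0 than in NF0 without overlap, with a ratio of 0.71 (0.70 to 0.73), and lower in AF than in NF (0.81, 0.79 to 0.83). Cald1 went the other way in the 0 names, with 6489 and 7018 CPM in AF0 and 4285 and 4156 CPM in NF0, a ratio of 1.62 (1.60 to 1.64), while the AF and NF names of Cald1 overlapped at a ratio of 0.92 (0.91 to 0.94). Tagln, Tpm2, Myl9 and Actg2 overlapped between the AF0 and NF0 names. Myh11 stayed under 15 CPM in every name, and 85.7% or more of its UMIs sat in 5 wells wherever it had over 5 UMIs.

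Between the AF and NF names and the 0 names, the members were mostly lower in AF and NF. Of all genes, 4575 of 9467 had a ratio of AF over AF0 above 1 (median 0.976). For NF over NF0 it was 3627 of 8798 (median 0.918). The non-muscle relatives were mostly lower too, with 1 and 3 of 12 above 1 in these comparisons. In adult wells 7 of 8 members with enough signal had a ratio of AF over AF0 below 1, and 3 were past 2-fold: Tagln (0.43, 0.42 to 0.45), Cnn1 (0.415, 0.345 to 0.497) and Cald1 (0.499, 0.492 to 0.506). The Cnn1 ratio was 0.247 with the gene minimum as the sole filter and 0.193 without the 5 highest wells of each name. Actg2 was higher, with a ratio of 2.31, but the ratio was 1.61 with the gene minimum as the sole filter and 0.545 without the 5 highest wells of each name. Of all genes 27.6% were past 2-fold between AF and AF0, and the names of 6 of the 8 members and of 60.8% of all genes did not overlap. In each direction 12.6% were past 2-fold higher and 15% lower in AF than in AF0. In neonatal wells all 7 members with enough signal had a ratio of NF over NF0 below 1, and Tpm2 was past 2-fold at 0.498 (0.471 to 0.526), against 14.3% of all genes past 2-fold and 9.82% lower. The names of 6 of the 7 did not overlap, against 46.9% of all genes. The Tpm2 ratio was 0.53 with the gene minimum as the sole filter and with wells weighted equally, so that the gene was then no longer past 2-fold. Pericyte markers were also higher in NF0, at 479 and 609 CPM, than in NF, at 291 and 318 CPM. An unnamed cluster with 4 of 8 pericyte and 5 of 10 fibroblast markers raised (cluster 13) held 44 NF0 and 2 NF wells and had 2460 CPM of Acta2, 1525 CPM of Tagln and 568 CPM of Tpm2. Without its wells the NF over NF0 ratio was 0.63 (0.61 to 0.64) for Acta2, 0.60 (0.58 to 0.62) for Tagln and 0.55 (0.52 to 0.58) for Tpm2, and no member was past 2-fold.

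Tagln, the early contractile marker of activated fibroblasts, showed this most evenly. It had 635 and 683 CPM in AF, 768 and 827 CPM in NF, 1310 and 1652 CPM in AF0 and 1243 and 1485 CPM in NF0. Every 0 name lay above every AF and NF name, whatever the age of the fibroblasts. Tpm2 gave the same order, with 263 and 270 CPM in AF, 252 and 212 CPM in NF, 425 and 567 CPM in AF0 and 418 and 498 CPM in NF0. After thinning, a Tagln UMI was seen in 74.1% to 87.0% of wells in the AF and NF names and in 96.8% to 99.0% in the 0 names (88.4% to 94.7% and 98.6% to 100% without thinning). What the wells of the 2 kinds share besides is not known, and whether they were grown or sorted apart cannot be told from the labels.

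Acta2 was lower in NF than in NF0 (ratio 0.60, 0.59 to 0.62), while in AF and AF0 the names overlapped (0.88). Cald1 had 3093 and 3742 CPM in AF and 3244 and 4154 CPM in NF, against the AF0 and NF0 values above, so that the adult ratio was 0.499 and the neonatal ratio 0.875. The AF0 wells stood apart from all others in more than these genes. Of 170 AF0 wells, 167 formed a cluster of their own that held no well of any other name and was led by Upk1b, a gene of mesothelial cells. With 3 of 8 mesothelial markers raised the cluster was left without a name, and these markers summed to 342 and 350 CPM in AF0 and to between 13.4 and 61.5 CPM in the other names of the library. Their part in the Cald1 and Cnn1 values was not tested.

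**Figure D3:**
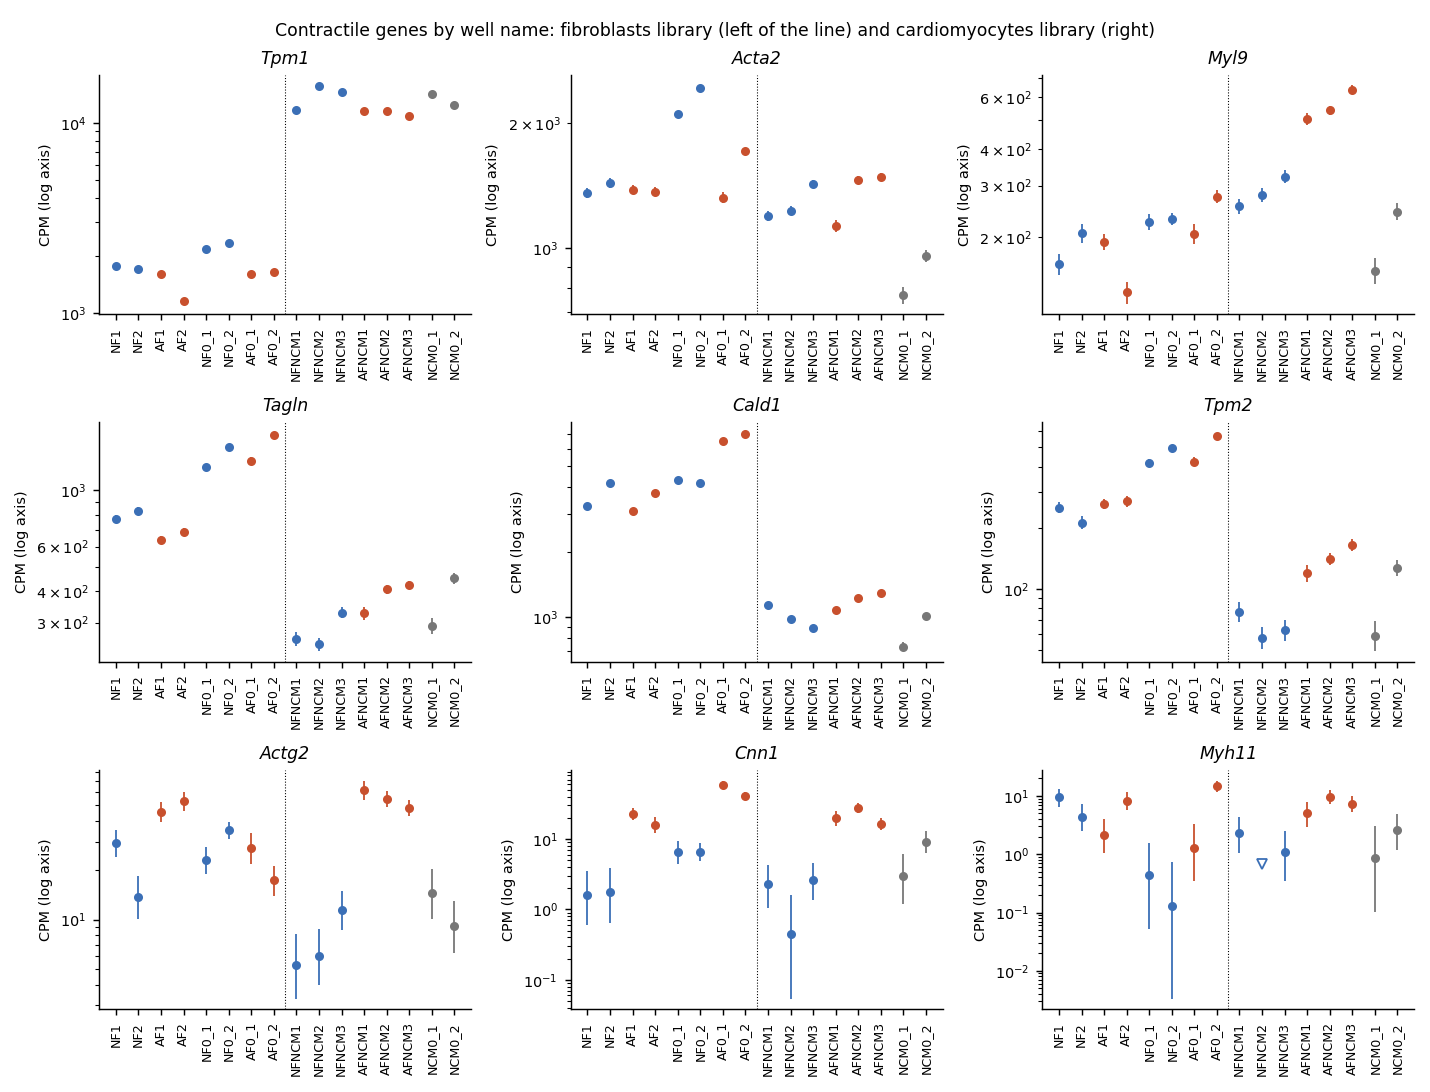
CPM of the 9 genes on logarithmic axes by well name, with 95% Poisson intervals, in the fibroblasts library (left of the dotted line) and the cardiomyocytes library (right); blue names begin with NF, red with AF, grey NCM0, and the open triangle marks 0 UMIs at the level of 3 counts. Cnn1 is higher in each adult name than in each neonatal one, and Tagln and Tpm2 are higher in the 0 names than in AF and NF.

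In the cardiomyocytes library, Cnn1, Tpm2 and Actg2 were past 2-fold between AFNCM and NFNCM wells, all higher in AFNCM. That is 3 of 8 members, where 7.9% of all genes were past 2-fold, 6.83% higher and 1.07% lower. Cnn1 had 19.6, 28.0 and 16.3 CPM in AFNCM and 2.28, 0.446 and 2.60 CPM in NFNCM, a ratio of 12.2 (7.99 to 19.5). Actg2 had 62.2, 54.6 and 48.3 CPM against 5.31, 6.02 and 11.5 CPM, a ratio of 6.98 (5.67 to 8.67). Tpm2 had 119, 140 and 165 CPM against 76.9, 57.0 and 62.3 CPM, a ratio of 2.23 (2.06 to 2.42). No AFNCM name overlapped an NFNCM name for these genes, which was true of 22.8% of all genes. The Actg2 ratio without the 5 highest wells of each name was 8.77 (5.53 to 14.7). The Tpm2 ratio with wells weighted equally was 1.94, under 2-fold.

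Myl9 came just short of 2-fold, with 507, 542 and 637 CPM in AFNCM, 255, 279 and 322 CPM in NFNCM and 154 and 244 CPM in NCM0. The kinds of wells stood in that order without overlap. Against NCM0, AFNCM wells had ratios of 2.74 (2.58 to 2.92) for Myl9, 4.76 for Actg2 and 3.21 for Cnn1, and these 3 of 8 members were past 2-fold higher (8.82% of all genes higher, 15.5% in either direction). With wells weighted equally the Cnn1 ratio was 1.06, and that of Actg2 2.82. The names of 6 of the 8 did not overlap, against 39.1% of all genes. Between NFNCM and NCM0, 0 of 7 members were past 2-fold (10.9% of all genes), and the names of 2 did not overlap (30% of all genes). Acta2 was lowest in NCM0, with 769 and 958 CPM, against 1129, 1456 and 1483 CPM in AFNCM and 1195, 1229 and 1425 CPM in NFNCM, and both co-culture kinds lay above NCM0 and overlapped each other. Tpm1 ran from 10854 to 11494 CPM in AFNCM, from 11650 to 15599 CPM in NFNCM and from 12430 to 14196 CPM in NCM0.

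The wells labelled cardiomyocytes were not all cardiomyocytes by their markers. Per the methods, co-cultured cells were sorted by a dye given to each cell type, and cells whose sort and cluster disagreed were then dropped, a step not taken in the values above. Cardiomyocyte-like clusters held 35.9% of AFNCM wells, 58.3% of NFNCM wells and 66.3% of NCM0 wells, and 33.0%, 37.7% and 32.2% of wells lay in clusters left without a name. Endothelial-like wells made up 10.9% of AFNCM and 2.29% of NFNCM wells. Fibroblast wells of adult and of neonatal origin fell mostly into different clusters, though cluster 10 held 38 AF and 34 NF wells and cluster 12 held 15 and 26. The fibroblast-like cluster held 158 of 219 AF wells, 96 of 515 AFNCM wells, 1 NFNCM well and no NF well. Of the 256 NF wells, 106 lay in cluster 2 and 70 in cluster 5, both unnamed, which also held 37 and 35 NFNCM wells and no AFNCM well. The fibroblast-like cluster had 35.2 CPM of Cnn1 (31.7 to 39.0) and 62.9 CPM of Actg2 (58.2 to 67.9). Cluster 2 had 7.04 and 34.2 CPM of these genes, cluster 5 had 5.87 and 17.0 CPM, and the cardiomyocyte-like wells of both libraries had 1.66 and 6.85 CPM. Cluster 9, also unnamed, held 121 AFNCM wells, 1 NFNCM well and 0 wells of the fibroblasts library, with a median of 7673 UMIs. It had 17.8 CPM of Cnn1 and 78.1 CPM of Actg2. For Cnn1 and Actg2 the makeup of a name therefore moves with the values above, and its part in them was not tested. Tpm2 had 311 CPM in the fibroblast-like cluster and 392 and 280 CPM in clusters 2 and 5. Myl9 had 257 CPM against 242 and 170 CPM.

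Within cardiomyocyte-like wells alone, Myl9 and Tpm2 remained higher in AFNCM than in NFNCM. The comparison rests on 185 AFNCM wells, mostly in cluster 8, and 305 NFNCM wells, mostly in clusters 1 and 4. Cluster 8 was led by Sprr2a1, Clu and interferon-response genes such as Iigp1 and Ifit1. Myl9 had 702, 521 and 918 CPM in AFNCM against 351, 320 and 314 CPM in NFNCM, a ratio of 2.21 (2.10 to 2.31), and 159 and 244 CPM in NCM0. Tpm2 had 33.5, 49.4 and 44.8 CPM against 9.63, 13.4 and 12.2 CPM, a ratio of 3.62 (2.87 to 4.60), but NCM0 was not low, at 31.5 and 72.2 CPM. Actg2 was also past 2-fold, at a ratio of 4.17 (2.66 to 6.77) on 93 and 25 UMIs, but its names overlapped, so that 3 of the 7 members with enough signal were past 2-fold, against 11.1% of all genes. Cnn1 had 21 and 7 UMIs in all in these wells, under 10 CPM in both.

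Tagln in cardiomyocyte-like wells followed another order. It had 131 and 268 CPM in NCM0, 52.8, 67.4 and 134 CPM in AFNCM and 27.0, 47.6 and 86.1 CPM in NFNCM. NCM0 names lay above all NFNCM names, with a ratio of NFNCM over NCM0 of 0.27 (0.24 to 0.30). Acta2 did not follow it, with 623 and 860 CPM in NCM0 against 1159, 1165 and 1191 CPM in NFNCM. Cald1 gave 330 and 565 CPM in NCM0, 330, 379 and 420 CPM in AFNCM and 169, 261 and 279 CPM in NFNCM.

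Across the 16 clusters, found without the 9 genes, the members differed in where they were highest. Tpm1 was highest in cardiomyocyte-like clusters, with 15803 to 18979 CPM against 1601 CPM in the fibroblast-like cluster. Tagln, Cald1 and Tpm2 were highest outside them: Cald1 had 281 to 647 CPM in the cardiomyocyte-like clusters, 3201 CPM in the fibroblast-like cluster and 6888 CPM in the AF0 cluster, and Tagln 71.9 to 132 CPM, 743 CPM and 1536 CPM. Acta2 and Myl9 were used in both. Acta2 had 1133 CPM in cluster 1 and 1693 CPM in the fibroblast-like cluster, and Myl9 was highest of all in cluster 14, at 1049 CPM, a cardiomyocyte-like cluster led by Sln, Myl7 and Nppa, genes of atrial muscle. Endothelial-like and macrophage-like wells also held 713 and 854 CPM of Acta2 and 448 and 358 CPM of Tagln, types not known for the contractile set. The part of free RNA in these values was not tested. Of the rarer members, Cnn1 followed the order of Cald1 and Tagln over these kinds of cluster, while Actg2 and Myh11 did not. Cnn1 had 0.716 to 6.91 CPM in the cardiomyocyte-like clusters, 35.2 CPM in the fibroblast-like cluster and 48.5 CPM in the AF0 cluster, its highest. Actg2 was highest in cluster 15 at 102 CPM, an endothelial-like cluster, and Myh11 in the same cluster at 15.8 CPM. These cluster 15 values rest on very few wells. Of its 149 Actg2 UMIs, 133 sat in 1 AFNCM2 well, and its 23 Myh11 UMIs all came from AFNCM3 wells. After thinning, a UMI of either gene was seen in 2.56% of its 39 wells. The unnamed cluster 10 had 97.4 CPM of Actg2 (80.6 to 117), within the interval of cluster 15 (86.6 to 120).

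**Figure D4:**
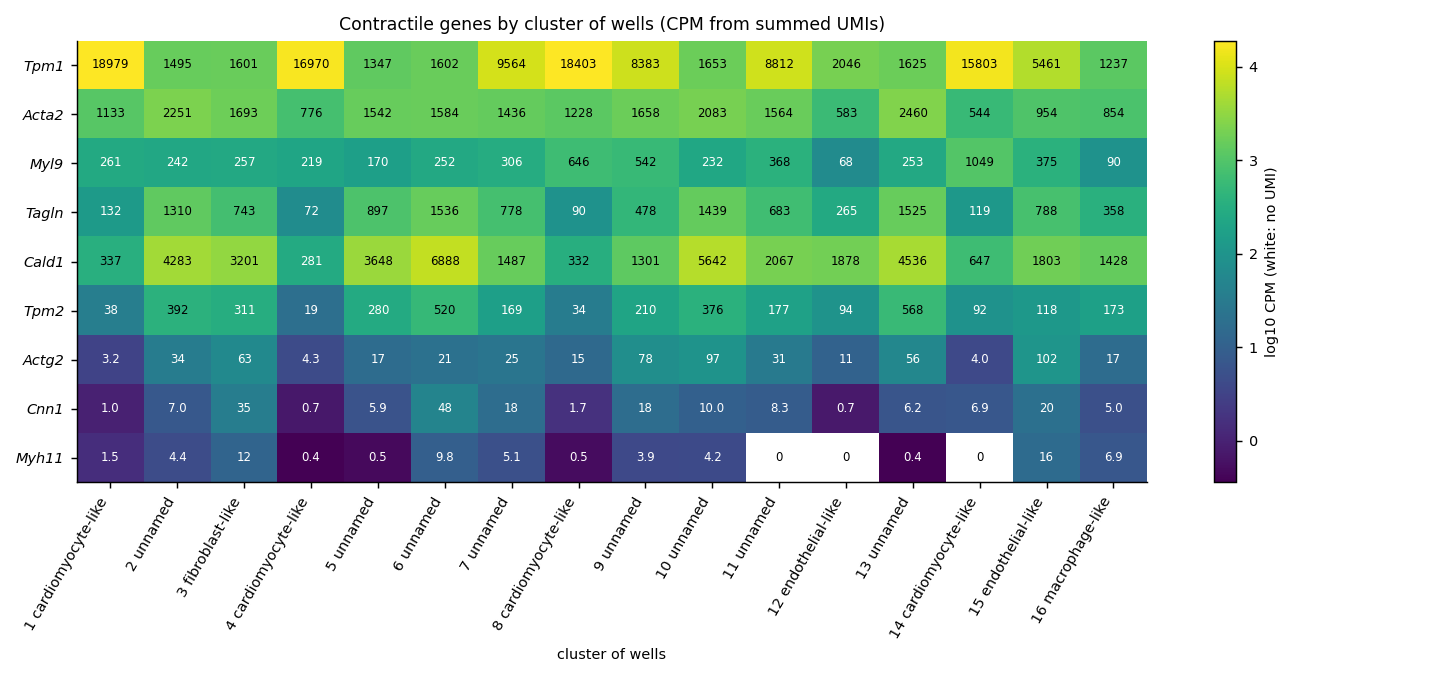
CPM of the 9 genes (rows) in 16 clusters of wells from both libraries (columns, with names where markers gave one), printed in each cell and coloured on a log10 scale, white where there was no UMI. Tpm1 is brightest in clusters 1, 4, 8 and 14, and Cald1 in cluster 6, which holds only AF0 wells.

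The rarest members sat in few wells. The 5 highest wells of a name held between 31.5% and 100% of the Cnn1 UMIs and between 45.3% and 100% of the Actg2 UMIs, compared with 11.2% to 46.7% for Cald1. In AFNCM2 the 5 highest wells held 95.6% of 158 Cnn1 UMIs and 80.5% of 308 Actg2 UMIs. Cnn1 and Actg2 shared 3 of their 5 highest wells in AFNCM1, 2 in AF0_1 and NFNCM3 and at most 1 in the other names, some of which had fewer than 5 wells with a Cnn1 UMI.

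Wells with Myh11 were few. Wells with 3 or more UMIs of Myh11, the defining heavy chain, numbered 6 of 515 AFNCM wells, 2 of 523 NFNCM wells, 1 of 258 NCM0 wells, 2 of 219 AF wells, 7 of 170 AF0 wells, 3 of 256 NF wells and 0 of 306 NF0 wells. The 6 AFNCM wells had 7425 CPM of Acta2, 4237 CPM of Tagln, 423 CPM of Cnn1 and 638 CPM of Actg2, against 1236, 306, 12.9 and 40.7 CPM of the same genes in the 500 AFNCM wells without a Myh11 UMI. The 7 AF0 wells differed less, with 2898 against 1496 CPM of Acta2 and 2302 against 1479 CPM of Tagln, and went the other way for Cnn1, with 37.97 against 50.01 CPM, and for Actg2, with 4.75 against 22.7 CPM. These wells were also deeper, with medians of 30443 and 62746 UMIs against 19670 and 37516 UMIs.

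**Figure D5:**
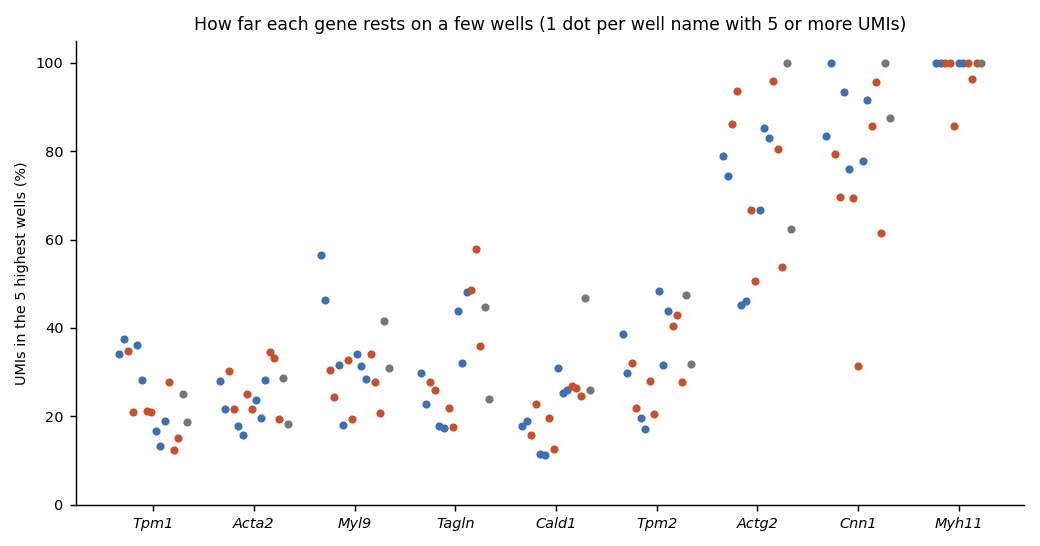
Percent of each gene's UMIs held by its 5 highest wells, 1 dot per well name with 5 or more UMIs (blue NF names, red AF names, grey NCM0). Actg2, Cnn1 and Myh11 lie between 31.5% and 100%, and the other 6 members stay at or below 57.9%.

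Wells differed in the members together as well as singly. Over the 951 wells of the fibroblasts library the closest pair was Acta2 with Tagln (Pearson r = 0.57 on the natural log of 1 + UMIs per 10000), and over the 1296 wells of the cardiomyocytes library it was Tagln with Cald1 (r = 0.49), while Tpm1 with Cald1 gave -0.52. Wells share a library and differ in depth, so these are descriptions. The 10 genes most like the sum of the 9 in the fibroblasts library, of 6206 genes seen in at least 20% of wells, were Prss23, Cryab, Ankrd1, Anxa1, S100a4, S100a6, Lox, Sparc, Tns1 and Ccng1, with r from 0.43 to 0.36. In the cardiomyocytes library, of 4610 genes, they were Tnnt2, Cst3, Tnnc1, Actc1, Tnni3, Myh6, Sh3bgr, Myl3, Actn2 and Pgam2, with r from 0.70 to 0.59. There the sum is mostly Tpm1, whose own r with the sum was 0.88, and 7 of the 10 are sarcomere genes. Against the sum of the other 8 members, Tpm1 had r = -0.27 over cardiomyocytes-library wells and 0.11 over fibroblasts-library wells, while Tagln had -0.17 and 0.51.

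The lists of related genes gave these counts between AF and NF wells. No other smooth muscle contractile gene of 14 with enough signal was past 2-fold higher in AF, and Smtn and Des were lower. Of 16 regulators, Tgfb1, Yap1 and Klf4 were higher, and of 9 matrix genes Col1a1, Col3a1, Cthrc1 and Tnc were higher, against 13.7% of all genes higher. Col1a1, Col3a1, Cthrc1 and Tnc were also higher in AFNCM than in NFNCM wells, while Col1a1 and Cthrc1 were called lower in imCM-AF in bulk. All 6 striated relatives with enough signal were lower in AF, as were all 10 cardiomyocyte markers, which moves with the lower Tpm1 of AF wells (1608 and 1151 CPM against 1752 and 1692 CPM in NF). Their part in the Tpm1 values was not tested.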

How the data were processed

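Bulk libraries were TruSeq V2 libraries, which do not mark strand, of imCMs separated from co-culture (by sorting per the methods, by centrifugation per the labels); single cells were dispensed on an ICELL8 chip. The bulk table holds raw counts per gene that the authors made with subread and featureCounts on mm10 (unique reads, built-in RefSeq genes). The single-cell matrices hold UMI counts that the authors made with STAR 2.5.2b on mm10 and featureCounts; the submitters' processing notes also name Subread 1.4.6-p1. The deposited reports hold read counts per well and the well names. Rows without a gene symbol took 3.52% of bulk counts.

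Bulk counts were tested with edgeR 4.0.16 (R 4.3.3; TMM, quasi-likelihood test, two-sided, CPM over 1 in at least 2 libraries, 14041 genes). DESeq2 1.42.0, limma-voom 3.58.1, other scalings, filters and thresholds, a replicate block and leaving out each library were alternatives. The study's reporting summary states in general that data came from independent experiments unless otherwise specified. Neither it nor the labels say whether these same-group libraries came from separate cultures. The p-values therefore measure the spread between these libraries, which may be technical. The libraries of a group differed by more than counting noise (chi-square per degree of freedom 9.12 and 8.94). On simulated counts (13897 genes) 89 of 100 genes changed by 0.8 and 97 of 100 changed by 1.5 on the log2 scale were recovered.

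The filter asked for 500 genes or more per well, an aligned share of reads over 50%, and a summed UMI count no further than 2 SD from the average, after the study's methods; mitochondrial genes were left out. The methods state fewer co-cultured cells than there are wells here. Their number equals that of the AF, NF, AFNCM and NFNCM wells before the filter, without the AF0, NF0 and NCM0 wells. Intervals are exact Poisson or binomial (95%) and cover counting error only; a count of 0 was drawn at 3 counts. Folds are described over genes with at least 10 CPM in either kind of well. The 2247 wells were clustered with scanpy 1.11.5 without the 9 genes (1998 variable genes, 10 components, 30 neighbours, Leiden resolution 1). A cluster was named where at least 50% of a marker list was raised 2-fold, a limit set after the clusters were seen, which left out the AF0 cluster, and where no other list had more genes among the cluster's top 10, which left out cluster 13. No doublet caller was run, since the methods say that single live cells were chosen by imaging. The well names, not in the labels, were taken from the reports. Named genes were all members, up to 5 called genes per list with the largest change, and the 10 genes most correlated with the members' sum in each library; other genes named in clusters or marker lists were chosen after their values were seen. Members and lists were chosen with earlier results of these data known. Promoters are from RefSeq.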

Additional observations from a re-analysis of the deposited data

Results flagged for a closer look

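Cnn1 went opposite ways in bulk and in single wells where cardiomyocytes kept with adult fibroblasts were set against those kept with neonatal fibroblasts, and the difference between the assays was not tested. In bulk both imCM-AF libraries were below both imCM-NF libraries (log2 fold change -0.72), while every AFNCM name was above every NFNCM name, with a ratio of 12.2. In cardiomyocyte-like wells alone the Cnn1 ratio was 3.36 (1.38 to 9.37) on 21 and 7 UMIs, and the names overlapped. Beside this, the adult fibroblast-like cluster held 96 AFNCM wells and 1 NFNCM well, and clusters 2 and 5, where most NF wells lay, held 37 and 35 NFNCM wells and no AFNCM well. The unnamed cluster 9, with 17.8 CPM of Cnn1, held 121 AFNCM wells and 1 NFNCM well. Cnn1 was not the only gene to turn round. Of 10 fibroblast markers, 5 were called lower in imCM-AF in bulk, and 5 were past 2-fold higher in AFNCM wells. Col1a1 and Col1a2 were in both counts. Of 9 endothelial markers 5 were called lower in bulk, while all 7 with enough signal were past 2-fold higher in AFNCM wells. Groups of 2 libraries were too small to look for outlying samples.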

How the results depend on the processing

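The number of genes called in bulk was 1564; it was 3789 at adjusted p under 0.05 alone and 565 at a log2 fold threshold of 1, and leaving out 1 library at a time gave 879 to 1929. The number of members called was 2; it was 1 with DESeq2, limma-voom or no filter on low counts, 0 at a threshold of 1, and 0 to 2 when 1 library was left out (0 on leaving out imCM-NF 1, and 1 on leaving out imCM-AF 1). Same-numbered libraries deviated apart (r = -0.176), so the numbers share only a name; with a replicate block 1430 genes and 2 members were called, and with the numbers crossed, chosen after seeing the data, 1668 genes and 2 members. Tpm1, not called, changed sign with upper quartile scaling (0.027), total counts (0.037), a CPM minimum of 5 (0.0069) and either block (0.00015 and 0.00013); with replicates left out in turn (imCM-NF replicate 2 for Myl9 at -0.12 and Tagln at 0.02, imCM-AF replicate 1 for Tpm1 at 0.06 and Tpm2 at -0.03) Tpm1 ran from -0.17 to 0.17, Myl9 from -0.12 to 0.26, Tpm2 from -0.053 to 0.31 and Tagln from -0.30 to 0.048. The cause was not tested.

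In single wells, members past 2-fold went from 2 to 1 (AF over NF), from 1 to 2 (AF0 over NF0) and from 1 to 0 (NF over NF0) with the gene minimum alone or all wells, NF over NF0 also to 0 and NFNCM over NCM0 from 0 to 1 with wells weighted equally, NFNCM over NCM0 to 2 in cardiomyocyte-like wells, and NF over NF0 to 0 without cluster 13, a setting added after seeing the data. Without the 5 highest wells, added after seeing the data, the Actg2 ratio was 0.97 (AF over NF) and 0.545 (AF over AF0), on the other side of 1. With wells weighted equally the Cnn1 ratio of AFNCM over NCM0 was 1.06 and of NFNCM over NCM0 0.089. Of the shares of wells with a UMI, taken for 5 genes in each name, 56 moved beyond their interval and 24 stayed within it without thinning, and 41 and 39 did so at 2500 UMIs. With 2 libraries per group and 1 library per kind of cell, small differences were not detectable.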
